A study of Mus musculus with 12 samples.

Results

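Kininogens are the precursor proteins of the kinins, short peptides that dilate vessels and raise vascular permeability, and 4 mouse genes of this system were followed through scWAT (subcutaneous white adipose tissue): the kininogens Kng1 and Kng2 and the bradykinin receptors Bdkrb1 and Bdkrb2. They were picked by name out of the 55401 genes counted, and the set was chosen by the value of 1 of them. Kng2 was known from these data to have one of the largest differences between the cold responses of the 2 genotypes, so its values are given as a description without a test. Of the 4 genes, 1 (Kng2) passed the filter on low counts that 16540 genes passed, and the other 3 were at or near the limit of detection in every group.

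RNA-seq counts came from 12 female mice in 4 groups of 3: wild-type (Jmjd1a +/+) and Jmjd1a HY/HY mice, and within each genotype 30°C and 8°C. All mice had a C57BL/6J background, were 16 weeks old, were caged singly and had spent 1 week at 30°C before 1 week at 8°C (cold) or a further week at 30°C (thermoneutrality). JMJD1A removes methyl groups from lysine 9 of histone H3, and HY/HY mice carry, in both copies and in every cell of the body, a histidine-to-tyrosine change that was made with CRISPR-Cas9 and disables the enzyme. The females used came from 1 of the knock-in lines of the study, and the whole fat pad was sequenced, so in these bulk samples fewer cells of a type and less RNA per cell cannot be told apart.

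In the circulation, the protease plasma kallikrein cuts high-molecular-weight kininogen to release bradykinin, tissue kallikreins cut low-molecular-weight kininogen, and peptidases such as angiotensin-converting enzyme, neprilysin and the carboxypeptidases degrade the kinins or trim them. The B2 receptor (Bdkrb2) is present in many tissues and binds intact bradykinin, whereas the B1 receptor (Bdkrb1) is usually induced by injury or inflammation and binds the kinins trimmed by carboxypeptidases. Plasma kininogen is made mainly by hepatocytes. Unlike humans, mice have a pair of kininogen genes.

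In the mm10 build (RefSeq GRCm38.p6) Kng2 (ENSMUSG00000060459.14) lies on the minus strand at chr16:22985852-23029101 and Kng1 (ENSMUSG00000022875.18) on the plus strand at chr16:23058220-23082078. The kininogen genes are thus head to head, with 29118 bases between them. Bdkrb2 (ENSMUSG00000021070.6) at chr12:105563172-105595244 and Bdkrb1 (ENSMUSG00000041347.5) at chr12:105604091-105605511 are neighbours on the plus strand of another chromosome. The coding sequences of Kng1 and Kng2, 1986 and 1935 bases long, were 92.8% identical (1792 of 1932 aligned bases), while those of the receptors, 1005 bases for Bdkrb1 and 1179 for Bdkrb2, were 58.8% identical.

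How alike the kininogen transcripts are bears on their counts, because a read pair that matches both cannot be assigned. Of the 2245 windows of 50 bases (the read length) in the Kng2 transcript, 409 (18.2%) also occurred in Kng1, and 396 of the 2206 windows in Kng1 (18%) also occurred in Kng2. No other protein-coding gene held any of these windows, and the receptors shared none with another protein-coding gene. Pseudogenes and non-coding genes were not searched. The windows describe single reads, and a pair can still be placed by the other read. The longest run that the kininogens have in common is 116 coding bases (coding positions 752 to 867), where a read can be placed only through its mate:
Kng1 and Kng2: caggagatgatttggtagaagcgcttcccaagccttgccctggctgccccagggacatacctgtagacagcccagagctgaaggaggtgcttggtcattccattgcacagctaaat
The counting set aside read pairs that matched more than 1 place, so the level of both kininogens may be understated. Most of the transcripts, however, tell the genes apart. The ungapped stretch of 60 bases with the most differences (coding positions 380 to 439) has 16, shown in capitals:
Kng1: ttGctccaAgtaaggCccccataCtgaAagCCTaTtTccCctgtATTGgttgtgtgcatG
Kng2: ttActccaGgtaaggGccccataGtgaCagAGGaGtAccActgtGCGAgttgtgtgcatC
The overlap applied to all libraries alike, and Kng2 had 1848 counts over the 12 libraries against 56 for Kng1.

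Each library held 13592629 to 26352081 counts on the sense strand of genes (median 18130585), and every library of the cold groups was smaller than every library of the 30°C groups. Levels are given as CPM, the counts scaled to a common library total with TMM factors. A gene with no count could have had up to 3 counts, which corresponds to 0.103 to 0.244 CPM depending on the library. The transcript of Kdm3a, the gene of JMJD1A, was at 49.3 ± 11.2, 45.5 ± 7.68, 39.9 ± 3.78 and 44.8 ± 1.4 CPM (SD, n = 3 each) in the wild-type and HY/HY groups at 30°C and then in the same genotypes at 8°C, and counts per gene do not tell the HY allele from the normal one. Of the whole tissue's marker lists, adipocyte genes summed to 19300 CPM or more in every library, and skeletal muscle genes stood apart in replicate 2 of the wild-type 30°C group (961 CPM, against 2.6 to 21 in all other libraries). Mammary epithelial genes, which a female fat pad can hold, summed to 2050 to 3680 CPM in the wild-type 30°C group and to 527 to 1510 CPM in all other libraries.

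Kng2 RNA was nearly absent at 30°C, abundant in the cold in wild-type mice and low in the cold in HY/HY mice. In wild-type mice at 30°C the 3 libraries had 7, 9 and 7 counts of Kng2, or 0.317, 0.325 and 0.372 CPM. At 8°C the wild-type libraries had 582, 495 and 540 counts, or 43.3, 37.3 and 34.6 CPM. The cold and 30°C wild-type libraries lay far apart, with means of 38.4 ± 4.4 and 0.338 ± 0.0297 CPM (SD, n = 3), a ratio of 114. The lower mean rests on 23 counts in all.

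In HY/HY mice at 30°C the levels of Kng2 were 0.814, 1.38 and 0.312 CPM, from 21, 40 and 6 counts. After cold exposure they were 2.33, 5.44 and 1.46 CPM, from 36, 87 and 18 counts. Each HY/HY library of the cold group was above each at 30°C, although the lowest of the former (replicate 3) and the highest of the latter (replicate 2) almost touched. The means were 3.08 ± 2.09 CPM in the cold and 0.834 ± 0.533 CPM at 30°C (SD, n = 3), a ratio of 3.69. The spread between the HY/HY libraries was wide relative to the mean at both temperatures.

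The order of Kng2 levels was therefore wild-type at 8°C, HY/HY at 8°C, HY/HY at 30°C and wild-type at 30°C. The wild-type mean in the cold was 12.5 times the HY/HY mean, and the lowest wild-type library in the cold stood well above the highest HY/HY library. At 30°C the HY/HY mean was 2.47 times the wild-type mean, but the libraries overlapped, and replicate 3 of the HY/HY group had the lowest level of all 12 libraries. Per kilobase of transcript the 4 mean levels of Kng2, in the order given, were 16.7, 1.34, 0.364 and 0.147 CPM.

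**Figure D1:**
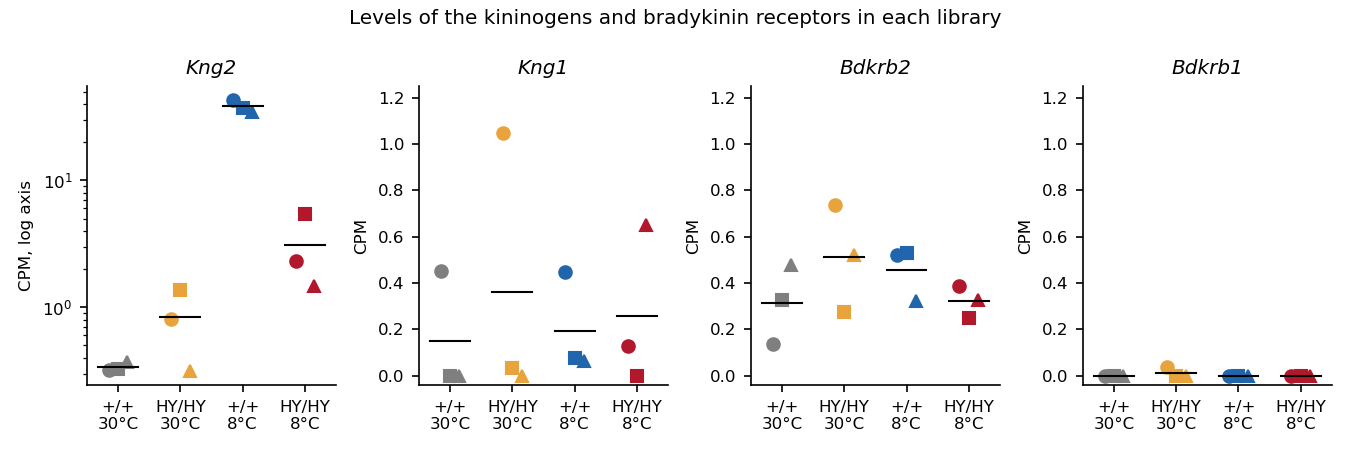
CPM of Kng2 (log axis), Kng1, Bdkrb2 and Bdkrb1 (linear axes) in each of the 12 libraries, by genotype and temperature. Circles, squares and triangles are replicates 1, 2 and 3 and bars are group means; the wild-type 8°C libraries of Kng2 lie between 34.6 and 43.3 CPM, above all others, while the groups of the other 3 genes overlap.

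Fitted over all genes with edgeR, the log2 difference of Kng2 between 8°C and 30°C was 6.81 in wild-type mice (112-fold higher) and 1.84 in HY/HY mice (3.57-fold higher). The former was the 11th highest of the 16540 genes tested, and the latter ranked 85 from the highest. Between the genotypes (HY/HY minus wild-type) the log2 difference was 1.36 at 30°C and -3.62 at 8°C, where Kng2 ranked 21 from the lowest. The contrast for which Kng2 was chosen, the HY/HY cold response less the wild-type one, was -4.97, the 5th lowest of all genes and the 13th largest in either direction.

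The choice of Kng2 had no threshold, so the genes beside it in that ranking show where it sits. Just below it were Cpne5 (-5.06), which encodes a calcium-dependent phospholipid-binding protein, an unnamed gene (-5.06), mt-Nd3 (-5.1), a complex I subunit of mitochondrial DNA, and Fgf21 (-6.77), a hormone also released by thermogenic fat. Just above it were another unnamed gene (-4.9) and Elovl3 (-4.78), a fatty acid elongase of brown and beige fat. These are log2 differences of cold responses and are given as a description.

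The values of Kng2 in HY/HY mice depended most on replicate 2 of each temperature. Without replicate 2 at 8°C, the library highest in Kng2, the cold response in HY/HY mice was 1.14, the genotype difference at 8°C was -4.32 and the difference of cold responses was -5.68 on the log2 scale. Without replicate 2 at 30°C the cold response in HY/HY mice was 2.4 and the genotype difference at 30°C 0.79. The wild-type cold response stayed between 6.72 and 6.88 whichever library was left out.

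**Figure D2:**
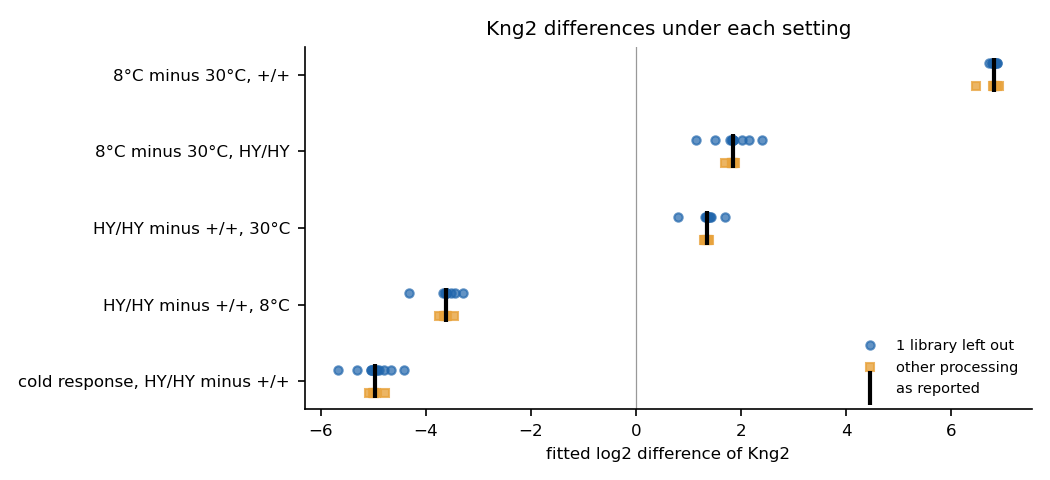
Fitted log2 differences of Kng2 in the 5 comparisons (x axis) as reported (black bars), with each library left out in turn (circles) and under other processing choices (squares). The sign held in every setting drawn, and the cold response of HY/HY mice had the widest range relative to its size, from 1.14 to 2.4.

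Between groups, Kng2 had the pattern of the genes of thermogenic adipocytes, the fat cells that burn fuel to produce heat. The 8 marker genes of these cells (Ucp1, Cidea, Elovl3, Cox8b, Dio2, Ppargc1a, Fabp3 and Cpt1b), of which Cpt1b had 0 counts in replicate 3 of HY/HY at 30°C and the others had counts in every library, had a summed level of 69.9 to 194 CPM for the wild-type and 60.9 to 228 CPM for the HY/HY libraries at 30°C. In the cold the sums were 8840 to 9990 and 540 to 1780 CPM. A gene was called where the adjusted p-value was below 0.05 and the change exceeded 1.5-fold up or 0.67-fold down. All 8 rose with cold in wild-type mice (10.3% of all genes tested did), and 7 were lower in HY/HY than in wild-type mice at 8°C (4.42% of all). Cpt1b, which is in both counts, passed the filter through the wild-type cold libraries (60 to 74 counts, against at most 16 in any other library). The filter thus favoured its calls. In HY/HY mice 3 of the 8 markers rose with cold (0.181% of all, or 30 genes), and 4 with the replicate block, where 128 of all genes did. For the difference of cold responses, called on the adjusted p-value alone, 1 marker (Ppargc1a) was lower (2.07% of all). With the replicate block 2 were (Elovl3 and Ppargc1a), where 469 of all genes were. Whether the share of such cells has a part in the Kng2 level was not tested.

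Within the HY/HY groups the markers followed the order of Kng2 in part. At 8°C replicate 3, the lowest in Kng2, was the lowest in all 8 markers, and replicate 2, the highest in Kng2, was the highest in 5 of them, while replicate 1 was the highest in Cox8b, Dio2 and Cpt1b. Ucp1, the uncoupling protein that dissipates the proton gradient as heat, was at 611, 904 and 212 CPM in replicates 1, 2 and 3. At 30°C replicate 2, the highest in Kng2, was the highest in 3 of the 8 markers, among them Elovl3 (4.82 CPM against 0.388 and 0.52 in replicates 1 and 3), whereas replicate 3, the lowest in Kng2, was the highest in 5 and had the highest sum (228 CPM, against 60.9 and 102 in replicates 1 and 2). With 3 libraries to a group these orders are descriptions.

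Over all 12 libraries, on the log2 CPM scale, the 8 genes whose pattern was most like that of Kng2 among 14586 genes with a mean of 10 or more counts included Rdh13 (Pearson r 0.979), Acot11 (0.972), Cox11 (0.972), Dock8 (0.969), Xrcc6 (0.968), 2310028O11Rik (0.966) and Ndufs8 (0.966). The 12 points form 4 groups of libraries, so r mainly describes the order of the group means, and no test is attached. Rdh13 is a mitochondrial retinol dehydrogenase, Acot11 is an acyl-CoA thioesterase of brown fat, Cox11 serves the assembly of cytochrome oxidase, Dock8 activates CDC42, Xrcc6 is the Ku70 subunit of DNA end joining, and Ndufs8 is a subunit of complex I.

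Likeness in pattern was not likeness in size. Rdh13 was at 20 ± 1.5 CPM in wild-type mice at 30°C, 38.8 ± 0.785 at 8°C and 26.1 ± 1.29 in HY/HY mice at 8°C (SD, n = 3). Acot11 had the widest range of the 8, with 7.16 ± 0.565, 238 ± 26 and 27.7 ± 17.5 CPM in the same groups. Among the thermogenic markers r with Kng2 ran from 0.797 for Dio2, the deiodinase that activates thyroid hormone, to 0.961 for Cpt1b, the muscle-type carnitine palmitoyltransferase, and was 0.895 for Ucp1. Among the 14586 genes these 3 ranked 982, 18 and 351, and the other markers ranked from 161 (Elovl3) to 421 (Cox8b). Many genes outside the marker list were thus closer to Kng2 in pattern than most of the markers. For Adipoq, the adipokine of all adipocytes, r was -0.554.

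**Figure D3:**
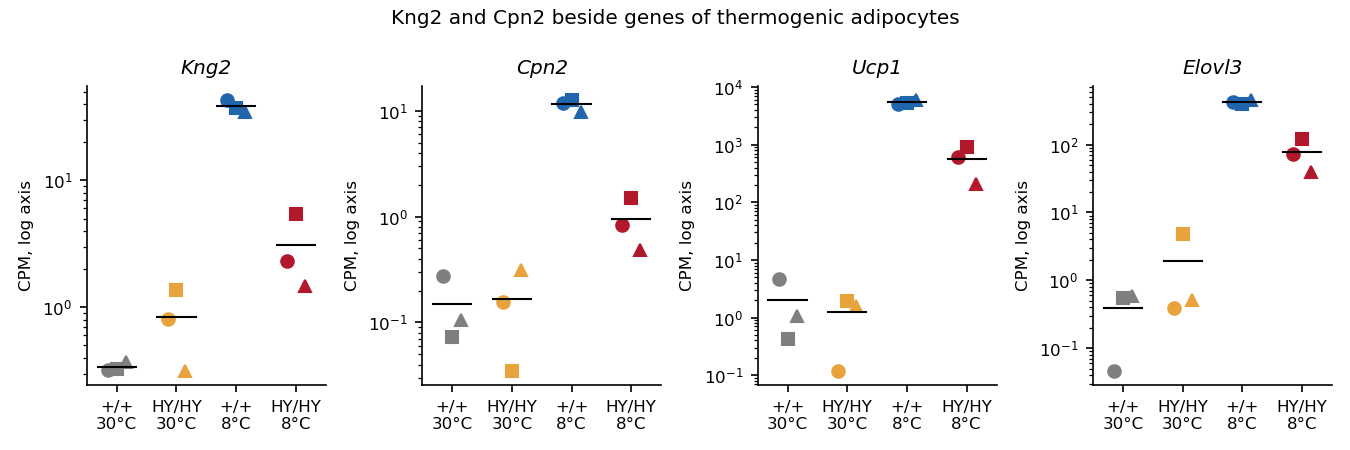
CPM on log axes of Kng2, of the carboxypeptidase N subunit gene Cpn2 and of the thermogenic genes Ucp1 and Elovl3 in each library. Circles, squares and triangles are replicates 1, 2 and 3 and bars are group means; in all 4 genes the wild-type 8°C libraries are the highest, and among the HY/HY 8°C libraries replicate 2 is the highest and replicate 3 the lowest.

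The genes around Kng2 on chromosome 16 did not share its level. Hrg (histidine-rich glycoprotein, 24192 bases away), Fetub (fetuin B, 46083 bases away) and Kng1 had at most 12, 12 and 27 counts in any library. Ahsg (fetuin A, 86400 bases away) had 0 to 95 counts, most of them in replicate 1 of the HY/HY group at 30°C, and its log2 difference between 8°C and 30°C in wild-type mice was -2.99 (adjusted p = 0.462, edgeR's quasi-likelihood test). A pseudogene inside Kng2, Gm6493, had at most 5 counts, and 4 other neighbours in the annotation (Gm30611, Gm8128, Gm8130 and Gm8134) had no matching identifier. Hrg, Fetub and Ahsg are, like the kininogens, cystatin-related plasma proteins made by the liver.

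Kng1, the other kininogen, was scarce and changed with neither temperature nor genotype beyond the spread of the libraries. In wild-type mice it had 10, 0 and 0 counts at 30°C and 6, 1 and 1 at 8°C. HY/HY libraries had 27, 1 and 0 counts at 30°C and 2, 0 and 8 at 8°C. Most of the counts in each group came from 1 library, and all groups overlapped.

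The group means of Kng1 were 0.151 ± 0.262 CPM at 30°C and 0.195 ± 0.217 CPM at 8°C in wild-type mice, and 0.36 ± 0.594 and 0.26 ± 0.344 CPM in HY/HY mice (SD, n = 3). Between 8°C and 30°C the exact permutation test (two-sided, with 0.1 the smallest p that 3 against 3 allows) gave p = 0.6 in wild-type and p = 0.9 in HY/HY mice. For the genotypes it gave exact p = 0.7 at 30°C and 0.8 at 8°C. A design of this size could not have reached 0.05. Fitted without the filter, over 31016 genes, edgeR's quasi-likelihood test gave Kng1 adjusted p-values of 0.706 to 1 in these 4 comparisons.

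The level of hepatocyte transcripts also differed between the libraries of a group. Of the hepatocyte markers, 6 genes (Apoa1, Apoh, Fga, Ahsg, F2 and Tdo2) had 3 counts or fewer in some libraries, a choice made after their values were seen. Their summed level was 13.9 CPM in replicate 1 of HY/HY at 30°C, 7.88 in replicate 3 of HY/HY at 8°C and 3.81 in replicate 1 of wild-type at 30°C, against 0.172 to 0.938 in the other 9 libraries. The 3 libraries with the highest sums were also the 3 with the most Kng1 counts (27, 8 and 10), while replicate 1 of wild-type at 8°C, next with 6 counts of Kng1, had a sum of 0.817 CPM, and replicate 2 of HY/HY at 8°C, with 0 counts of Kng1, had one of 0.938 CPM. Over all 10 hepatocyte markers the order was another one, since replicate 3 of HY/HY at 30°C, with 0 counts of Kng1, summed to 177 CPM, above replicate 1 with 27 counts (157 CPM). Whether liver transcripts account for the Kng1 counts was not tested.

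Kng2 did not follow the hepatocyte genes. In the wild-type cold libraries, where Kng2 was at 34.6 to 43.3 CPM, the 6 genes summed to 0.226 to 0.817 CPM, and Fga had no count in any of them. Of all 10 hepatocyte markers, which include Alb at 572 counts or more in every library, the sum was 64 to 75.7 CPM in those libraries and 59.8 to 102 CPM in the wild-type 30°C group. The HY/HY groups had sums of 91.4 to 177 CPM at 30°C and 91.2 to 212 CPM in the cold. The hepatocyte sum was not raised where Kng2 was highest. Whether liver transcripts have a part in the Kng2 counts was not tested.

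**Figure D4:**
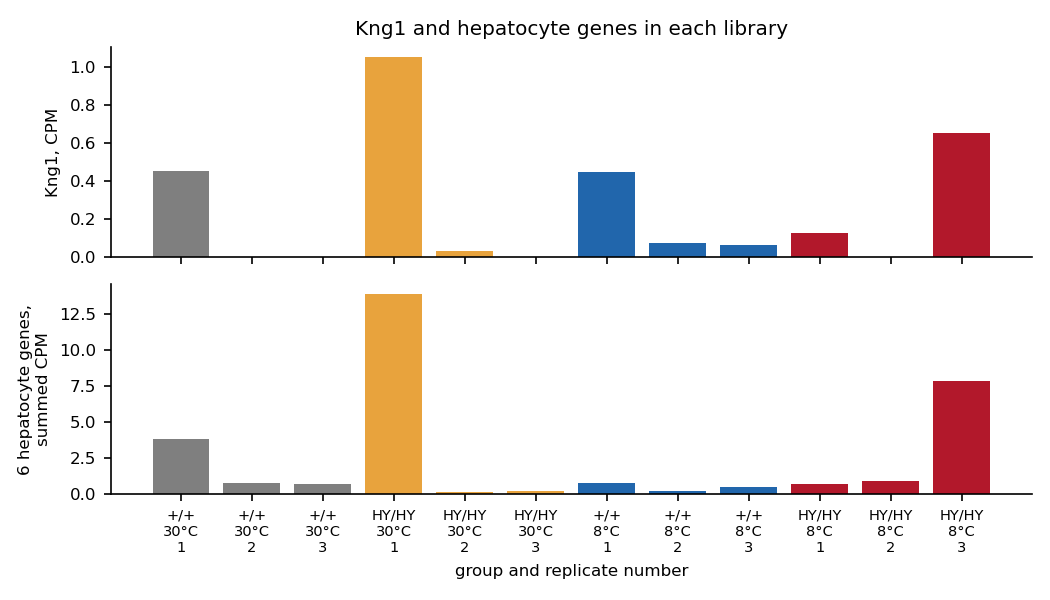
Kng1 (upper bars, CPM) and the summed level of 6 hepatocyte genes (lower bars, CPM) in each of the 12 libraries, coloured by group. Replicate 1 of HY/HY at 30°C has the tallest bar in both, at 1.05 and 13.9 CPM, and replicates of 1 group differ more than the groups do.

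The B2 receptor was detected in every library at a low level that did not differ beyond the spread. Bdkrb2 had 3, 9 and 9 counts in wild-type mice at 30°C and 7, 7 and 5 at 8°C. In HY/HY mice it had 19, 8 and 10 counts at 30°C and 6, 4 and 4 at 8°C. Its means were 0.313 ± 0.171 and 0.51 ± 0.231 CPM at 30°C in wild-type and HY/HY mice, and 0.456 ± 0.117 and 0.321 ± 0.0693 CPM at 8°C (SD, n = 3).

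All 4 comparisons of Bdkrb2 overlapped. Between 8°C and 30°C the mean differed by 0.143 CPM in wild-type mice and -0.189 CPM in HY/HY mice (exact permutation p = 0.3 for each). HY/HY minus wild-type was 0.197 CPM at 30°C (exact permutation p = 0.4) and -0.135 CPM at 8°C (exact permutation p = 0.3). Without the filter the adjusted p-values of edgeR's quasi-likelihood test were 0.666 to 0.79. At 3 to 19 counts a library no difference in Bdkrb2 was detectable.

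The B1 receptor was at the limit of detection. Bdkrb1 had 1 sense count in all 12 libraries, in replicate 1 of the HY/HY group at 30°C, so its level did not exceed the 3-count limit of 0.103 to 0.244 CPM in any library. Per kilobase of transcript the mean level of Bdkrb2 ran from 0.186 to 0.304 CPM over the groups and that of Kng1 from 0.067 to 0.16, so that in wild-type mice in the cold Kng2 (16.7 CPM per kilobase) was at a higher level than its receptors and its neighbour.

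Outside the members, the kinin pathway was read from a list of 32 genes, of which 24 passed the filter: 2 of 6 kinin-forming proteases and cofactors, 2 of 3 inhibitors, 10 of 12 kinin-degrading peptidases and 10 of 11 signalling genes. In wild-type mice 4 of the 24 (16.7%) were called higher in the cold and 1 (4.17%) lower, where 10.3% and 6.93% of all 16540 genes were. Cpn2, among the 4, passed the filter through the wild-type cold libraries. The median log2 difference of the list was 0.04 (all genes -0.069).

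In HY/HY mice the cold response had 0 calls among the 24 by edgeR, with 4 genes at an unadjusted p under 0.05. DESeq2 called 1 of them, Cpn2, and so did edgeR without the filter or without replicate 3 of the HY/HY 30°C group. Of all genes 0.181% were called higher and 0.0665% lower, or 30 and 11 genes, which became 128 and 32 with the replicate block, while the list kept 0 calls. Between the genotypes at 30°C there were also 0 calls by edgeR and by DESeq2, with 6 genes at an unadjusted p under 0.05, where 0.562% of all genes were called higher and 0.441% lower. The peptidase gene Mme was called there once replicate 2 of the HY/HY 30°C group was left out.

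At 8°C, 2 genes (8.33%) were called higher in HY/HY than in wild-type mice, where 1.51% of all genes were, and 2 (8.33%) lower, where 4.42% were. Of the latter, Cpn2 passed the filter through the wild-type cold libraries. The list median was 0.12 (all genes 0.012). For the difference of the cold responses, called on the adjusted p-value alone, edgeR made 0 calls among the 24, with 4 genes at an unadjusted p under 0.05, where 0.169% of all genes were called higher and 2.07% lower. DESeq2 called 3 as lower there, Cpn2, Cpm and C1qbp. edgeR without the filter, or with counts of both strands together, called Cpn2, as it did without replicate 2 of HY/HY at 30°C, and it called C1qbp without replicate 3 of wild-type or replicate 1 of HY/HY at 30°C.

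**Figure D5:**
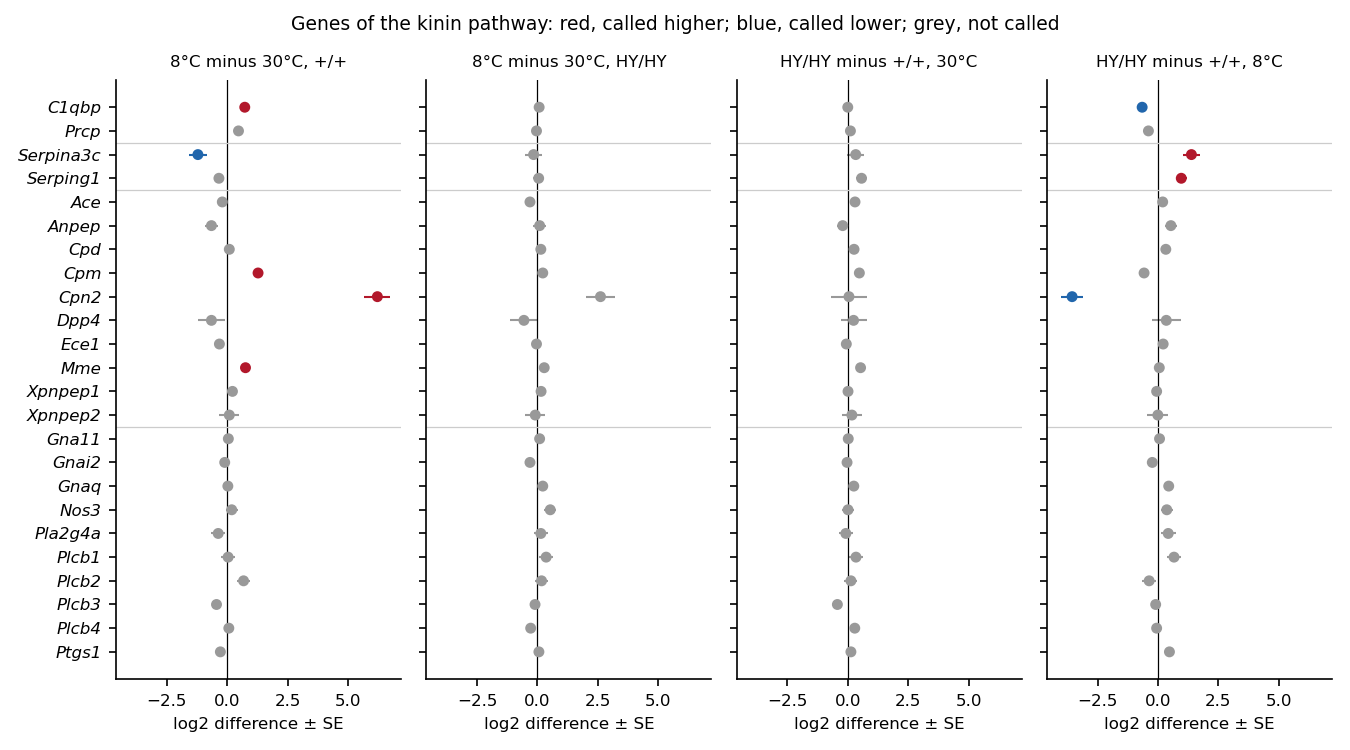
Log2 difference (x axis, with SE) of the 24 tested kinin pathway genes in 4 comparisons, ordered from top to bottom as forming, inhibiting, degrading and signalling genes. Red and blue points were called higher and lower; Cpn2 has the largest difference in the first and last panels, at 6.22 and -3.56.

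Cpn2 had the largest change in the list and, between groups, a pattern close to that of Kng2. It encodes the regulatory subunit of carboxypeptidase N, which clips the last residue of kinins in plasma and so turns B2 receptor ligands into B1 receptor ligands (ENSMUSG00000023176.9, chr16:30256378-30267532 in mm10). At 30°C it had 6, 2 and 2 counts in wild-type and 4, 1 and 6 in HY/HY libraries. In the cold it had 160, 169 and 152 counts in the former and 13, 24 and 6 in the latter. The wild-type cold libraries were far above the rest, and the 30°C groups overlapped each other.

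The means of Cpn2 were 0.15 ± 0.107, 0.167 ± 0.139, 11.5 ± 1.54 and 0.943 ± 0.514 CPM (SD, n = 3) for wild-type and HY/HY at 30°C and wild-type and HY/HY at 8°C. Its log2 difference with cold was 6.22 ± 0.54 (SE) in wild-type mice (Benjamini-Hochberg adjusted p = 3.26e-05, edgeR's quasi-likelihood test) and 2.61 ± 0.6 in HY/HY mice (adjusted p = 0.104). Between the genotypes at 8°C it was -3.56 ± 0.45 (adjusted p = 0.00165). The difference of the cold responses, -3.62 ± 0.91, missed the threshold (adjusted p = 0.0674 by the same test). Only the wild-type cold group had 10 or more counts of Cpn2 in each library. The group where Cpn2 is high thus let it be tested, which limits what these p-values show.

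Cpn2 passed the threshold in wild-type mice and between genotypes in the cold whichever library was left out (adjusted p up to 0.000329 and 0.0151 by edgeR's quasi-likelihood test). These fits keep libraries of the group that let it be tested, so the same limit holds for them. The r of Cpn2 with Kng2 was 0.945 over 12 libraries, which ranked 71 among 14586 genes. Per kilobase its mean was 2.5 CPM in wild-type mice in the cold, below the 16.7 of Kng2. The gene of the catalytic subunit, Cpn1, had 0 to 5 counts in all 12 libraries, at or near the limit of detection.

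The group means of Kng2 and Cpn2 had the same order. Within HY/HY at 30°C, however, replicate 2 was the highest in Kng2 and the lowest in Cpn2, and replicate 3 the reverse. The 250 bases upstream of their annotated starts are shown with those of Bdkrb2, which had too few counts (3 to 19 a library) to show a difference. They are from the RefSeq GRCm38.p6 table (Kng2 at chr16:23029102-23029351 on the minus strand, Cpn2 at chr16:30267533-30267782 on the minus strand and Bdkrb2 at chr12:105562922-105563171 on the plus strand). Capitals mark AGGTCA, the half-site bound by many nuclear receptors, on either strand:
Kng2: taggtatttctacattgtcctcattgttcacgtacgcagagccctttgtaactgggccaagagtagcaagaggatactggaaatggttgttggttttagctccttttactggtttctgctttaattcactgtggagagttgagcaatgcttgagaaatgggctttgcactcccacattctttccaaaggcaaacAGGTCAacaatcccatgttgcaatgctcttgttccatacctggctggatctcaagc
Cpn2: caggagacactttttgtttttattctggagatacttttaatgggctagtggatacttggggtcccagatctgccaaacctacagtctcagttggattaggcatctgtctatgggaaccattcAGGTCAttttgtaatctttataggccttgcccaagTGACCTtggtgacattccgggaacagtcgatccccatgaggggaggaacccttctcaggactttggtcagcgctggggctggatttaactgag
Bdkrb2: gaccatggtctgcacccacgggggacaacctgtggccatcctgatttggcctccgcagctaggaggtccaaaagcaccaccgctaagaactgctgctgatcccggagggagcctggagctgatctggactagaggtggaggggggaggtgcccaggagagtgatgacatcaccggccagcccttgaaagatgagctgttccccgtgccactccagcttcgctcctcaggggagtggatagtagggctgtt
These motifs were chosen after the sequences had been seen. The window of Kng2 held 1 match of AGGTCA, that of Cpn2 held 2 and that of Bdkrb2 held 0, while 4607 of 32851 promoter windows of this length (14%) held at least 1. The full cAMP response element TGACGTCA, which reads the same on both strands and was found in 508 windows (1.55%), occurred in none of the 3. A match is a description of the letters and does not show that a factor binds.

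The other peptidases called were Mme and Cpm. Mme, or neprilysin, degrades bradykinin and other peptides at the cell surface, and it lay between 42.8 and 50.2 CPM in the wild-type 30°C libraries and between 77.1 and 83.3 CPM in the wild-type cold libraries. The log2 difference was 0.76 ± 0.12 (adjusted p = 0.00141, edgeR's quasi-likelihood test), and 0.42, under the fold limit, where libraries were scaled by their totals without TMM. In HY/HY mice Mme was at 68.7 ± 11.7 CPM at 30°C and 83.4 ± 6.08 at 8°C (SD, n = 3), a log2 difference of 0.28 that was not called (adjusted p = 0.331 by edgeR).

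Cpm, a membrane carboxypeptidase with the same cleavage as carboxypeptidase N, was at 2.38 ± 0.284 CPM in wild-type mice at 30°C and 5.84 ± 1.2 at 8°C (SD, n = 3), a log2 difference of 1.28 ± 0.21 (adjusted p = 0.00145 by edgeR's quasi-likelihood test). In HY/HY mice it was at 3.34 ± 0.146 and 3.88 ± 0.738 CPM. Its genotype difference in the cold was -0.58 (adjusted p = 0.12 by edgeR), and the libraries of the genotypes overlapped there. Of 5 endothelial markers, 3 were called higher in the cold in wild-type mice, where 10.3% of all genes tested were. Their sums were 424 to 623 CPM at 30°C and 745 to 1040 CPM at 8°C in these mice. In HY/HY mice the endothelial sums were 582 to 714 and 599 to 782 CPM. The part of these markers in the changes of Mme and Cpm was not tested.

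Of the kinin-degrading peptidases that were tested, Ace, Cpd, Xpnpep1, Xpnpep2, Anpep, Ece1 and Dpp4 were called by edgeR and by DESeq2 in none of the 5 comparisons. Under other settings edgeR called Anpep lower with cold in wild-type mice with the replicate block, with the libraries of that comparison alone, without TMM and without replicate 3 of HY/HY at 30°C, and Ece1 without TMM. Ace, the angiotensin-converting enzyme and a main kininase, was at 38.9 ± 8.52 and 33.9 ± 3.04 CPM in wild-type mice at 30°C and 8°C, and at 47.9 ± 9.59 and 38.6 ± 3.91 CPM in HY/HY mice (SD, n = 3). Anpep, aminopeptidase N, was at 65.1 ± 12.6 and 41.5 ± 3.7 CPM in wild-type mice, a log2 difference of -0.65 that missed the threshold (adjusted p = 0.0852 by edgeR). Cpb2, a plasma carboxypeptidase of the liver, had at most 3 counts.

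The proteases that release kinins were scarcely detected. Klkb1, plasma kallikrein, had 0 counts in all 12 libraries, which allows up to 0.103 to 0.244 CPM. F12 and F11, the coagulation factors at the head of the contact system, had at most 9 and 5 counts, and Klk1, a tissue kallikrein that belongs to a large family of near-identical genes, had at most 18. The 2 members of this list that passed the filter were Prcp, a carboxypeptidase that activates prekallikrein on endothelium, and C1qbp, a mitochondrial matrix protein that also binds kininogen at the cell surface.

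C1qbp was at 69.2 ± 6.79 CPM in the wild-type 30°C group, 114 ± 12.7 CPM in the wild-type cold group, and 69.3 ± 7.73 and 72.5 ± 5.64 CPM in the respective HY/HY groups (SD, n = 3). Every wild-type library in the cold, at 101 to 126 CPM, was above every other library. It rose with cold in wild-type mice (log2 difference 0.73 ± 0.12, adjusted p = 0.00173 by edgeR's quasi-likelihood test) and was lower in HY/HY mice in the cold (-0.66 ± 0.12, adjusted p = 0.00962). The latter call was lost without replicate 3 of wild-type at 8°C (adjusted p = 0.0534, same test) or without replicate 3 of HY/HY at 8°C, and without TMM both differences (0.39 and -0.52) were under the fold limit. Prcp was called by edgeR and by DESeq2 in no comparison, but edgeR called it higher with cold in wild-type mice without replicate 1 of wild-type at 30°C.

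Both inhibitors that were tested were higher in HY/HY than in wild-type mice at 8°C. Serping1, the C1 inhibitor that blocks plasma kallikrein and factor XII, was at 44.9 ± 3.85 CPM in wild-type and 87.3 ± 15.1 CPM in HY/HY mice in the cold (SD, n = 3), with no overlap. The log2 difference of 0.96 ± 0.22 passed the threshold (adjusted p = 0.0229, edgeR's quasi-likelihood test), but the call was lost without any 1 of the 3 wild-type libraries or of replicates 1 and 3 of HY/HY at 8°C, with an adjusted p of up to 0.0944 by that test. At 30°C the means were 56.6 ± 4.6 and 84.3 ± 32 CPM (SD, n = 3), with 1 HY/HY library at 121 CPM.

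Serpina3c, called kallikrein-binding protein, fell with cold in wild-type mice from 80 ± 19.3 to 34.5 ± 11.6 CPM (SD, n = 3; log2 difference -1.21 ± 0.36, adjusted p = 0.0294 by edgeR) and was higher in HY/HY mice in the cold, at 90.2 ± 32.8 CPM (1.38 ± 0.36, adjusted p = 0.0383 by edgeR). The first call was lost without replicate 2 or 3 of wild-type at 30°C or replicate 1 or 2 of wild-type at 8°C (adjusted p up to 0.108 by edgeR). The second was lost without replicate 1 of wild-type at 30°C, any wild-type library at 8°C or replicate 1 or 3 of HY/HY at 8°C (adjusted p up to 0.158 by edgeR). Serpina3c belongs to a cluster of near-identical genes, so its counts are uncertain. A2m, a broad protease inhibitor, had at most 1 count.

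At 8°C macrophage markers differed between the genotypes as well. They summed to 118 to 133 CPM in wild-type and 204 to 272 CPM in HY/HY mice. Of these, 2 of 5 genes were called higher, where 1.51% of all genes tested were. At 30°C the macrophage sums, 156 to 158 and 177 to 313 CPM, did not overlap either, but 0 of the 5 genes were called. Adipocyte markers at 8°C summed to 26400 to 32700 and 32100 to 41700 CPM, which overlap, with 1 of 6 called higher. The part of these markers in the levels of Serping1 and Serpina3c was not tested.

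The last list covers signalling downstream of the receptors. It holds the G proteins Gnaq, Gna11 and Gnai2, the phospholipases Plcb1 to Plcb4 and Pla2g4a, endothelial nitric oxide synthase (Nos3) and the cyclooxygenases Ptgs1 and Ptgs2, and of the 10 that were tested 0 were called by edgeR in each of the 4 comparisons between groups, with 2 to 4 at an unadjusted p under 0.05, and 0 by DESeq2. For cold in wild-type mice edgeR called Plcb3 and Ptgs1 lower without TMM, Nos3 higher and Pla2g4a lower without replicate 3 of wild-type at 30°C, and Plcb2 higher without replicate 3 of HY/HY at 30°C. Gnaq, which couples both receptors to phospholipase C, was at 42.3 ± 0.763 CPM in wild-type and 57.5 ± 4.26 in HY/HY mice at 8°C (SD, n = 3), a log2 difference of 0.44 with an adjusted p of 0.0486 by edgeR that stayed under the fold limit. Plcb3 differed by -0.44 with cold in wild-type mice (adjusted p = 0.0162 by edgeR), also under that limit. Ptgs2, the inducible cyclooxygenase, had at most 13 counts and was not tested.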

How the data were processed

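RNA of scWAT from 12 mice was sequenced by the authors as paired reads of 50 bases, which, per the study's methods, were trimmed with fastp and aligned to mm10 with STAR. The submitters' processing notes also name FastQC and StringTie. The authors deposited raw counts per gene (GENCODE M25 identifiers, 55401 genes) for both strands and each strand, unfiltered; the sense strand was used here, which held 95.55% to 96.22% of the stranded counts. Entries that name no gene were left out: unaligned pairs (25.07% to 28.75% of all), pairs aligned to several places (26.71% to 32.21%), pairs outside genes (1.99% to 3.2%) and ambiguous pairs (0.93% to 1.1%). A symbol was matched to 32589 identifiers.

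Counts were analysed with edgeR 4.0.16 in R 4.3.3 (filterByExpr, 16540 genes, TMM factors of 0.859 to 1.175, quasi-likelihood test, 1 mean per group over all 12 libraries, 8 residual degrees of freedom, Benjamini-Hochberg adjustment over the genes tested, two-sided). For genes below the filter, CPM were compared with exact permutation tests. DESeq2 1.42.0, other scalings and filters, both strands, a replicate block and leaving out each library were the alternatives. Coding sequences from GENCODE M1 transcripts were aligned with Biopython 1.88; levels per kilobase use their longest transcript. Promoters and coordinates are from RefSeq GRCm38.p6.

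The 4 genes, the pathway list and the marker lists were chosen with earlier results of these data known. The genes named are the 4 members, each pathway gene called in any comparison, the 8 genes most correlated with Kng2 (1 is not reported here), the 4 nearest genes on each side of Kng2 and Kdm3a; the other pathway genes named beyond their counts were added after their values were seen. The main fits pair no samples. Between HY/HY mice at 30°C and 8°C, and between no other groups, the deviations of all 3 same-numbered pairs correlated over 0.1 (0.112 to 0.303). No label says that these numbers pair animals. The replicate block was an alternative fit with a term for the replicate number over all libraries, so it also pairs the other groups. Nothing but the replicate numbers in the labels tells the libraries of a group apart, so p-values measure the spread between these samples. No pair of libraries agreed within sampling noise.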

Additional observations from a re-analysis of the deposited data

Results flagged for a closer look

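Bdkrb1 had more counts on the strand opposite to the gene, which the comparisons do not use, than on its own strand. The opposite strand held 13 counts over the 12 libraries, in 5 of them, and the sense strand 1. The highest was 4 counts in replicate 1 of the wild-type group at 30°C, above the 3-count limit. The values on the opposite strand were 4, 3 and 0 counts in wild-type mice and 1, 3 and 0 in HY/HY mice at 30°C, and 0, 0 and 2 in wild-type mice and 0, 0 and 0 in HY/HY mice at 8°C. Of the other members, Kng2 had 3 counts on the opposite strand against 1848 sense counts, and Kng1 and Bdkrb2 had 0. The source of these counts was not tested.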

How the results depend on the processing

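Of 341 values and counts recomputed under an alternative, 323 stayed within the spread between libraries or within 1.5 times the count reported. For the single pathway genes called, 178 further values were recomputed, of which 158 stayed the same, 20 became weaker and 0 were reversed. The log2 differences of Kng2, leaving out 1 library at a time, ranged from 6.72 to 6.88 and from 1.14 to 2.4 for cold in wild-type and HY/HY mice, from 0.79 to 1.7 and from -4.32 to -3.3 for genotype at 30°C and 8°C, and from -5.68 to -4.41 for the difference of cold responses. Pathway genes called, leaving out 1 library at a time, ranged from 4 to 7 and from 0 to 1 for cold in wild-type and HY/HY mice, from 0 to 1 and from 1 to 4 for genotype at 30°C and 8°C, and from 0 to 1 for the difference of cold responses. At 8°C the 4 calls became 2 without wild-type replicate 1, wild-type replicate 2 or HY/HY replicate 1, and 1 without replicate 3 of either genotype. Cpn2 was the 1 pathway gene called for cold in HY/HY mice by DESeq2 and without the filter. For the difference of cold responses DESeq2 called 3, and 1 was called without the filter or with both strands. Where library sizes set the scale without TMM, the median of all genes for cold in wild-type mice moved to -0.41 on the log2 scale, the share of calls that were higher fell from 59.8% to 20.4% (8°C genotype difference 25.4% to 52.7%, difference of cold responses 7.57% to 18.6%), the pathway calls for cold in wild-type mice became 2 higher and 5 lower, and C1qbp (0.39) and Mme (0.42) missed the fold limit, while Kng2 was at 6.47. All genes called for cold in HY/HY mice numbered 30 higher and 11 lower with edgeR and 216 and 94 with DESeq2, and the difference of cold responses had 28 higher and 342 lower against 95 and 714. Of 18 same-numbered pairs 11 had a correlation over 0.1, and 7 of 12 libraries correlated best with their own number, and only HY/HY mice at 30°C and 8°C had all 3 pairs over 0.1. With the replicate block Kng2's difference of cold responses was -5.09, and all genes called at 30°C for genotype went from 93 higher and 73 lower to 215 and 304. Depth limits Kng1, Bdkrb1 and Bdkrb2, and requiring 10 counts in every library removed Kng2 and Cpn2.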
